A study of Mus musculus with 8 samples.

Results

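The genes described here are 10 members of the integrated stress response and of serine and one-carbon metabolism: *Atf4*, *Ddit3*, *Trib3*, *Chac1*, *Asns*, *Phgdh*, *Psat1*, *Psph*, *Shmt2* and *Mthfd2*. They were taken by symbol from the 25239 gene symbols counted in each library. The list was chosen from the *Bmpr1a*-cKO against control contrast itself, in which *Trib3* had been seen to be higher in *Bmpr1a*-cKO ovaries. The differences of all 10 genes are therefore given as a description, with no p-value or FDR for any of them. Where they are counted by the thresholds of the fit across all genes, nothing is read from the counts. Of the 14249 genes that passed the filter on low counts, 9 belonged to the list, and *Chac1* did not pass.

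RNA-Seq had been run on fetal ovaries at E14.5, in 4 control and 4 *Bmpr1a*-cKO pools of 2 ovary pairs each. Control embryos were Bmpr1a fl/fl, and *Bmpr1a*-cKO embryos were Bmpr1a fl/fl; Oct4-Cre Cre/WT, so that the floxed receptor allele was shared by both groups and the Cre allele was carried by the *Bmpr1a*-cKO alone. All embryos were female and on a C57BL/6 background, and the dams of both groups had received 1 mg of 4-hydroxy tamoxifen and 0.5 mg of progesterone on 3 days (9.5, 10.5, then 11.5 dpc). The Oct4-driven Cre acts in germ cells, and the somatic cells of the ovary, which made up part of every pool, kept the receptor. The 8 embryos of each genotype came from 6 litters, and the labels do not say which litter a library came from.

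The integrated stress response begins when one of several kinases, which sense amino acid shortage, unfolded protein, haem or double-stranded RNA, phosphorylates the translation initiation factor eIF2alpha. Translation then falls for most transcripts but increases for that of *Atf4*, whose product turns on genes of amino acid uptake and synthesis. Serine synthesis from a glycolytic intermediate, and the folate cycle that takes one-carbon units from serine for nucleotide synthesis, are among the pathways that ATF4 is known to drive, and proliferating cells depend on both.

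ATF4 binds C/EBP-ATF response elements together with a C/EBP partner, and the core of this element was looked for at the starts of the 10 genes. The window ran from 250 bases before to 50 bases after each RefSeq start (GRCm38.p6), and the only motif counted was TGATGNAA, on both strands. It was present for 3 of the 10 genes (*Asns*, *Chac1* and *Trib3*), for 9 of the 25 other ATF4 and CHOP target genes that had a promoter entry (36%), and for 1219 of all 27025 symbols in the promoter table (4.51%). The 3 stretches are shown because *Trib3* and *Asns* are the genes with the largest differences on the list, whereas *Chac1*, which carries the same core, had almost no reads. Each is written 5′ to 3′ on the strand of the gene, with the match in capitals.
Trib3, minus strand, chr2:152344028-152344057: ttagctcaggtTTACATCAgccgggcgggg
Asns, minus strand, chr6:7693214-7693243: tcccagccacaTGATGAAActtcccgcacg
Chac1, plus strand, chr2:119351003-119351102: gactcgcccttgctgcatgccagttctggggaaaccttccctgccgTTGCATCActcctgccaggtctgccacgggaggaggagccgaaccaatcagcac
The match of *Asns* lay on the strand of the gene and began 23 bases before the start, and those of *Chac1* and *Trib3* were on the opposite strand, the former beginning 193 bases before the start and the latter at base 15 after it. A match describes these letters only, and binding was not measured. Both lists were drawn up from known pathway genes, so nothing is read from their shares beside that of all symbols. Among the 9 other target genes with a match, 7 were tested and 1, *Slc1a4*, was a DEG; of the 16 without one, 15 were tested and 1, *Stc2*, was a DEG.

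Depth ran from 10622684 to 15365052 counts for controls and from 8562961 to 14887102 for *Bmpr1a*-cKO libraries, and levels below are CPM, the count per 1000000 counts of the library, after TMM scaling. A DEG had an FDR below 0.05 and an absolute Log2FC above 0.5 in the edgeR quasi-likelihood test, where Log2FC is *Bmpr1a*-cKO minus control on the log2 scale. Of the genes tested, 871 were higher (6.11%) and 578 lower (4.06%) in *Bmpr1a*-cKO ovaries, and the split was 361 and 2317 when libraries were scaled to the germ cell markers. *Bmpr1a* itself stood at 199 to 237 CPM in control and 185 to 209 CPM in *Bmpr1a*-cKO libraries, as a sum over the whole gene in which the floxed exon was not examined separately. The summed germ cell markers ranged from 684 to 908 CPM in control and from 724 to 1129 CPM in *Bmpr1a*-cKO, all 8 markers being detected. Of these, 3 rose (*Dazl*, Log2FC 0.63, *Dnd1*, 0.78, and *Tdrd12*, 1.54) and 1 fell (*Mael*, -0.80), and the mean of *Dazl* was 327 CPM for controls and 506 CPM for *Bmpr1a*-cKO ovaries, whereas the other 7 markers summed to means of 441 and 448 CPM. With *Dazl* left out of the scaling markers, an alternative chosen after seeing the data, 633 genes were higher and 444 lower. The summed pregranulosa markers ranged from 1802 to 1953 and from 1436 to 1774 CPM, with 8 of 10 lower by FDR alone and *Foxl2* a DEG, and the summed macrophage markers from 33.5 to 42.0 and from 44.8 to 56.5 CPM, with 3 of 6 tested being DEGs. Of the stroma, endothelium and mesonephros markers none was a DEG, nor was any of the erythroid markers, of which 4 of 7, all globin genes, had no count in any library. At an unadjusted p under 0.05 in the edgeR quasi-likelihood test, 1 mesonephros and 1 erythroid marker were lower, the latter (*Hbb-y*, Log2FC -0.30) also by FDR alone (edgeR FDR = 0.0326), and 0 stroma and 0 endothelium markers differed. In pooled whole ovaries, fewer cells of a type and less RNA per cell cannot be told apart, and the part of these marker differences in the values below was not tested.

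In outline, *Trib3* was about 2.08 times as high in *Bmpr1a*-cKO as in control ovaries, *Asns* 1.46 times and *Phgdh* 1.32 times, and for these 3 genes every *Bmpr1a*-cKO library lay above every control library. The transcription factors *Atf4* and *Ddit3*, the later serine enzymes *Psat1* and *Psph*, and the mitochondrial folate enzymes *Shmt2* and *Mthfd2* had overlapping groups, with Log2FC from -0.26 to 0.22. Of the 9 genes tested, 7 had a Log2FC above 0 and 2 below, and their median was 0.19 against -0.0042 over all genes tested. Counted by the thresholds for a DEG, 2 of the 9 were higher (*Trib3* and *Asns*) and 0 lower, beside backgrounds of 6.11% and 4.06%. By FDR alone 3 were higher and 0 lower, beside 17.3% and 12.5%, and 3 had all *Bmpr1a*-cKO libraries above and 0 all below the control libraries, beside 16.1% and 11.7%. As the contrast chose the list, nothing is read from these counts. Without control 4 the median was 0.113.

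**Figure D1:**
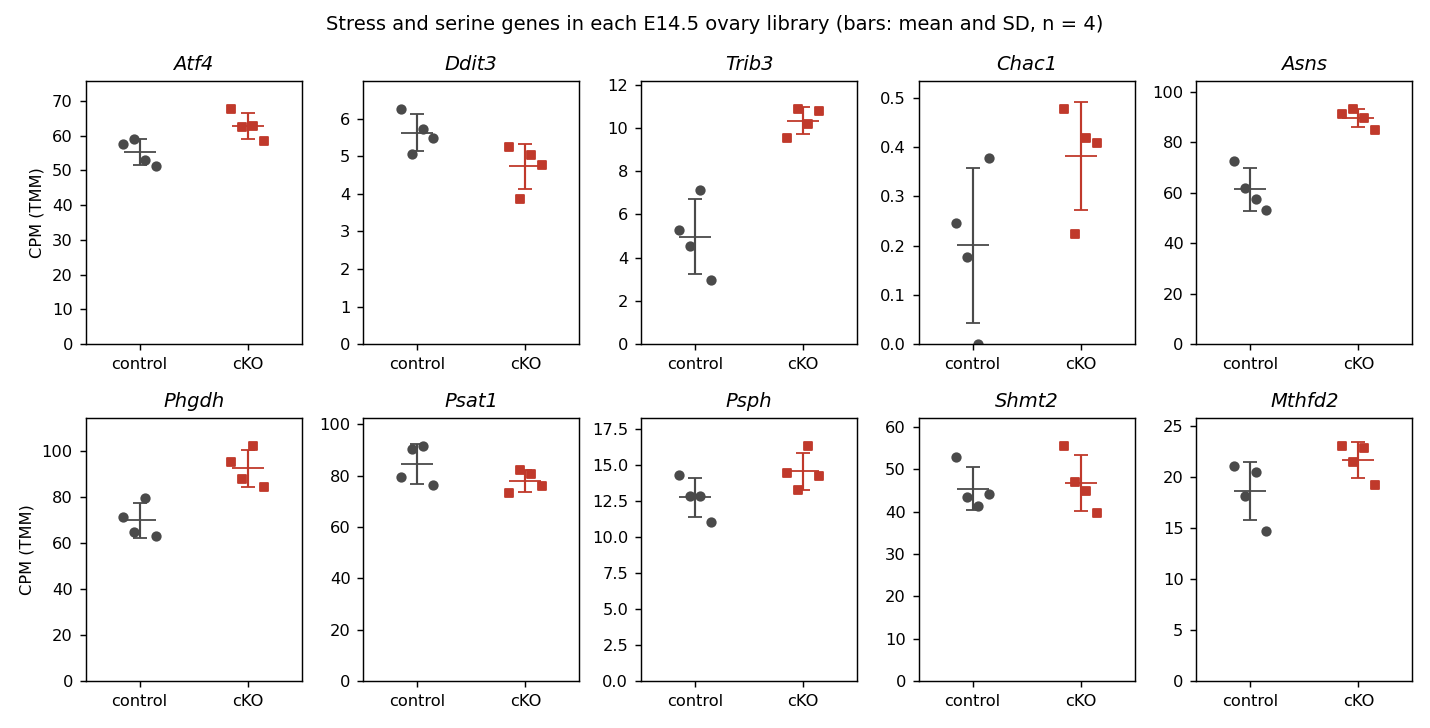
CPM after TMM scaling of each of the 10 genes in the 4 control (grey circles) and 4 *Bmpr1a*-cKO libraries (red squares), on linear axes that start at 0, with libraries 1 to 4 from left to right in each group; bars give the mean and SD. The groups are separate for *Trib3*, *Asns* and *Phgdh* and overlap for the other 7 genes.

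*Atf4* (chr15:80255184-80257541, mm10, plus strand) encodes the transcription factor at the centre of the response, which is regulated mainly through translation of its mRNA. Its level in control 1 to 4 was 57.7, 59.2, 52.9 and 51.3 CPM, and in *Bmpr1a*-cKO 1 to 4 it was 67.6, 62.4, 62.8 and 58.5 CPM. The groups overlapped through *Bmpr1a*-cKO 4, which lay below control 2, and the other 3 *Bmpr1a*-cKO libraries lay above all controls. The Log2FC was 0.18 (SE 0.070).

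*Ddit3* (chr10:127290774-127296288, plus strand) encodes CHOP, a C/EBP family factor that ATF4 turns on under lasting stress and that is linked to cell death. Control libraries had 6.25, 5.05, 5.71 and 5.49 CPM and *Bmpr1a*-cKO libraries 5.25, 3.87, 5.02 and 4.78 CPM. The groups overlapped, with *Bmpr1a*-cKO 2 the lowest and control 1 the highest of the 8 libraries. The Log2FC was -0.26 (SE 0.15), resting on 44 to 87 counts per library. The annotation places 68 exon bases of *Ddit3* over *Mars*, which lies on the opposite strand, and 105 under a second entry of the same name, so reads there could be assigned to either.

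*Trib3* (chr2:152337422-152344032, minus strand) encodes a pseudokinase that ATF4 and CHOP induce and that restrains ATF4 activity and AKT signalling. Its level was 5.26, 4.52, 7.12 and 2.97 CPM in control 1 to 4, and 9.54, 10.9, 10.2 and 10.8 CPM in *Bmpr1a*-cKO 1 to 4. The *Bmpr1a*-cKO libraries were close together (10.3 ± 0.62 CPM, SD, n = 4), whereas the control libraries were spread (4.97 ± 1.72 CPM, SD, n = 4) with control 4 the lowest and control 3 the highest. Between 47 and 76 counts lay behind each control value and between 80 and 158 behind each *Bmpr1a*-cKO value. The Log2FC was 1.09 (SE 0.19), the 289th highest of 14249 genes. It ran from 0.878 without control 4 to 1.31 without control 3 when single libraries were left out, and was 0.782 with germ cell marker scaling and 1.07 with *Dazl* left out of those markers.

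*Chac1* (chr2:119351229-119354381, plus strand) encodes a glutathione-degrading enzyme that is induced strongly by ATF4 and CHOP in stressed cells. It had 3, 2, 0 and 6 counts in control and 4, 3, 4 and 6 counts in *Bmpr1a*-cKO libraries, 11 and 17 in all. These counts were at or near the floor of 3 counts per library, so that no fold is given and a difference was not detectable at this depth.

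*Asns* (chr6:7675169-7693254, minus strand) encodes asparagine synthetase, an amino acid response gene and a standard readout of ATF4 activity. Control libraries had 72.8, 62.0, 57.5 and 53.3 CPM and *Bmpr1a*-cKO libraries 91.3, 93.2, 89.7 and 84.8 CPM. The lowest *Bmpr1a*-cKO library, number 4, lay above the highest control library, number 1. The Log2FC was 0.55 (SE 0.084), just inside the threshold of 0.5, and *Phgdh* at 0.40 was the nearest of the list outside it. *Asns* fell outside it without control 4 (0.475), with library size as the scale (0.498) and with germ cell marker scaling (0.249), but not when *Dazl* was left out of those markers (0.537).

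The 3 enzymes that make serine act in sequence, and their values did not go one way. *Phgdh* (chr3:98313170-98339990, minus strand), the dehydrogenase of the first step, had 71.4, 64.7, 79.5 and 63.1 CPM in control and 95.0, 87.9, 102 and 84.1 CPM in *Bmpr1a*-cKO libraries. All *Bmpr1a*-cKO libraries lay above all controls, and the Log2FC was 0.40 (SE 0.082). *Psat1* (chr19:15904678-15947337, minus strand), the aminotransferase of the second step, had 79.7, 90.6, 91.6 and 76.3 CPM in control and 73.1, 82.0, 80.6 and 75.9 CPM in *Bmpr1a*-cKO libraries. Its groups overlapped with the *Bmpr1a*-cKO mean the lower one, at a Log2FC of -0.11 (SE 0.072). *Psph* (chr5:129765558-129787449, minus strand), the phosphatase of the last step, had 14.3, 12.8, 12.8 and 11.04 CPM in control and 14.4, 13.2, 16.3 and 14.3 CPM in *Bmpr1a*-cKO libraries. Control 1 lay among the *Bmpr1a*-cKO libraries, and the Log2FC was 0.19 (SE 0.11). *Psph* shared 452 exon bases with *Cct6a* on the opposite strand, and its reads cannot be told apart from those of *Cct6a* there unless the counting used strand.

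Downstream, *Shmt2* and *Mthfd2* encode mitochondrial enzymes that pass the one-carbon unit of serine to folate and oxidise it. *Shmt2* (chr10:127517123-127522444, minus strand) had 52.9, 43.6, 41.4 and 44.1 CPM in control and 55.6, 47.1, 44.9 and 39.8 CPM in *Bmpr1a*-cKO libraries. Both the highest and the lowest of the 8 values were *Bmpr1a*-cKO libraries, and the Log2FC was 0.03 (SE 0.099), with a sign that changed between the scalings tried. *Shmt2* shared 32 exon bases with *Ndufa4l2* on the opposite strand, so reads there could be assigned to either unless the counting used strand. *Mthfd2* (chr6:83305691-83325908, minus strand) had 21.0, 18.2, 20.4 and 14.7 CPM in control and 23.0, 21.4, 22.8 and 19.2 CPM in *Bmpr1a*-cKO libraries. *Bmpr1a*-cKO 4 lay among the controls, and the Log2FC was 0.22 (SE 0.11). Over the whole list, control 4 was the lowest of the 8 libraries for 6 of the 10 genes and *Bmpr1a*-cKO 1 the highest for 4.

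Levels of different genes were compared per length, as RPKM, the CPM divided by the kilobases of exon. In control ovaries *Phgdh* was the highest at 28.0 ± 3.003 RPKM (SD, n = 4), followed by *Atf4* at 23.4 ± 1.59, *Asns* at 22.5 ± 3.08, *Psat1* at 19.9 ± 1.81 and *Shmt2* at 14.6 ± 1.63 RPKM. A lower set held *Mthfd2* at 5.33 ± 0.822, *Ddit3* at 3.28 ± 0.292, *Psph* at 2.95 ± 0.308, *Trib3* at 2.34 ± 0.811 and *Chac1* at 0.123 ± 0.0963 RPKM. The control ranges of *Atf4* and *Asns*, of *Asns* and *Psat1*, of *Ddit3* and *Psph* and of *Psph* and *Trib3* overlapped. The ranges do not separate those neighbours, and their order within each library was not tested. *Trib3*, the gene with the largest difference, had the second lowest control mean of the 10, and in *Bmpr1a*-cKO ovaries it stood at 4.86 ± 0.290 RPKM, below *Mthfd2* at 6.20 ± 0.508 RPKM.

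**Figure D2:**
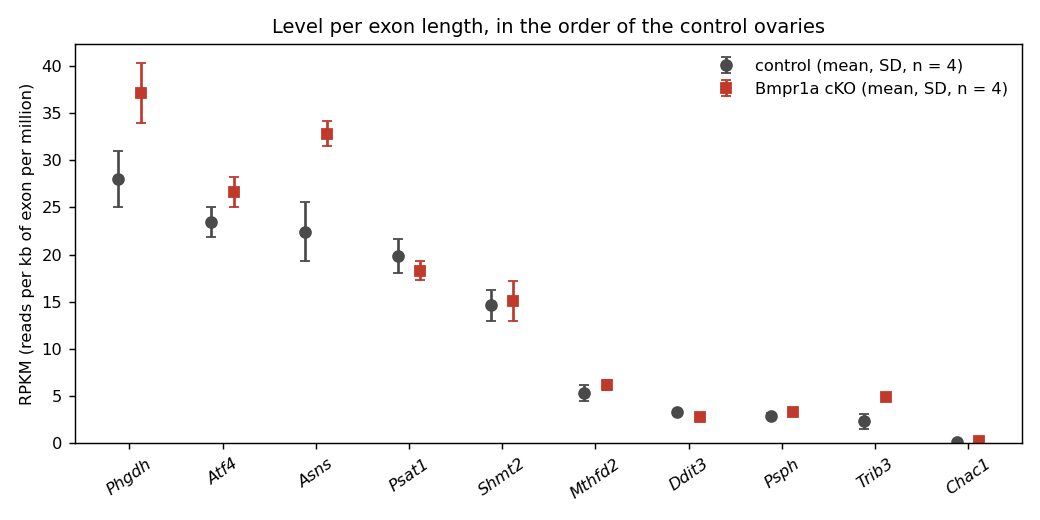
Mean RPKM over the union of exons, with the SD of 4 libraries, in control (grey circles) and *Bmpr1a*-cKO ovaries (red squares), on a linear axis; genes stand in the order of the control means. *Phgdh*, *Atf4*, *Asns*, *Psat1* and *Shmt2* lie above 14 RPKM in control ovaries and the other 5 genes below 6 RPKM.

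The closest relatives of the 10 genes were tested in the fit across all genes. Of 8, 2 were DEGs that rose and 0 fell, beside 6.11% and 4.06% of all genes tested. This list, like those below, was drawn up with earlier results of these data known, so nothing is read from its counts. *Shmt1*, the cytosolic counterpart of *Shmt2*, rose from 22.7, 28.8, 31.9 and 21.96 CPM in control to 50.8, 57.6, 55.8 and 52.9 CPM in *Bmpr1a*-cKO libraries (Log2FC 1.05, SE 0.10, edgeR quasi-likelihood FDR = 3.45e-06). *Mthfd1*, which carries out the cytosolic folate interconversions, rose from 70.6, 66.1, 67.9 and 60.3 to 123, 111, 116 and 106 CPM (Log2FC 0.78, SE 0.067, edgeR FDR = 1.01e-06). In both, all *Bmpr1a*-cKO libraries lay above all controls, which was not so for mitochondrial *Shmt2* and *Mthfd2*. Such a separation was found for 16.1% of all genes tested. *Mthfd1l*, the mitochondrial relative of *Mthfd1*, ranged over 25.8 to 33.5 CPM among controls and 30.1 to 38.6 CPM among *Bmpr1a*-cKO libraries and passed the FDR but not the fold threshold (Log2FC 0.31, edgeR FDR = 0.0244), and *Mthfd2l*, the relative of *Mthfd2*, had 11.3 to 13.6 and 10.7 to 12.05 CPM (Log2FC -0.10, edgeR FDR = 0.493).

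The relatives of *Trib3* did not pass the test. *Trib1* ranged over 12.3 to 14.7 CPM among controls and 12.3 to 16.9 CPM among *Bmpr1a*-cKO libraries (Log2FC 0.15, edgeR FDR = 0.355), and *Trib2* had 104 to 125 and 89.5 to 117 CPM (Log2FC -0.18, edgeR FDR = 0.137). *Atf5*, the factor nearest to *Atf4*, had 21.4 to 25.1 and 18.7 to 21.0 CPM, with no overlap between groups (Log2FC -0.17, edgeR FDR = 0.133). Every *Bmpr1a*-cKO library lay below every control library for 11.7% of all genes tested. *Chac2*, the relative of *Chac1*, had 3.21 to 4.96 and 3.27 to 3.93 CPM (Log2FC -0.14, edgeR FDR = 0.621).

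**Figure D3:**
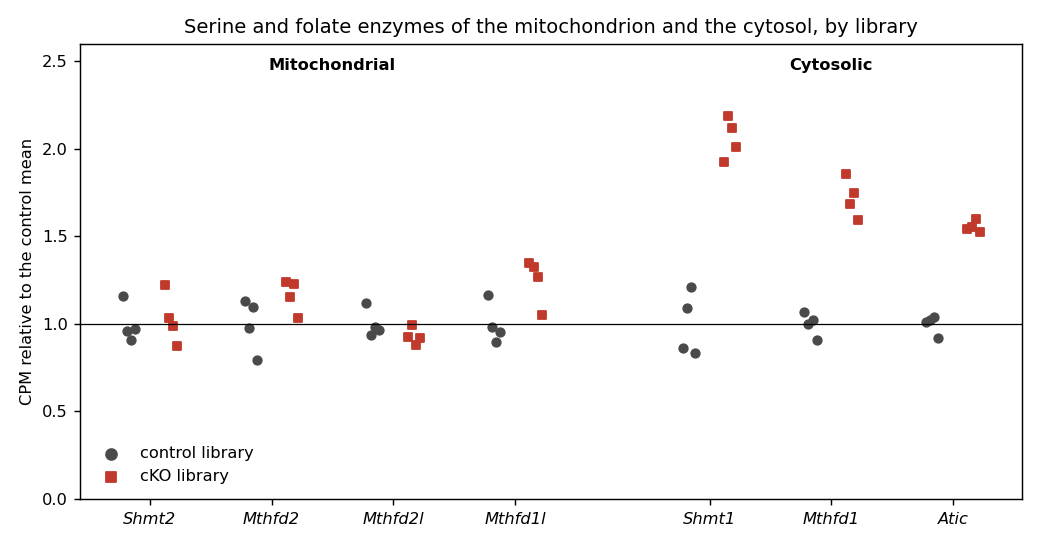
CPM of each library divided by the control mean of that gene, for mitochondrial (*Shmt2*, *Mthfd2*, *Mthfd2l*, *Mthfd1l*) and cytosolic (*Shmt1*, *Mthfd1*, *Atic*) enzymes; grey circles are control and red squares *Bmpr1a*-cKO libraries, and the line marks the control mean. For the 3 cytosolic enzymes all 4 *Bmpr1a*-cKO libraries lie above all 4 controls, and for the 4 mitochondrial enzymes the groups overlap.

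The rest of the pathway was described by 6 lists holding 115 other genes, of which 111 were tested. Of these, 10 were DEGs that rose and 2 were DEGs that fell, beside 6.11% and 4.06% of all genes tested. By FDR alone 36 were higher and 7 lower, beside 17.3% and 12.5%, and the median Log2FC was 0.073. The same shares are the background for the counts of each list below. As the lists were drawn up with earlier results of these data known, their counts are a description and nothing is read from them. For groups without overlap the background was 16.1% (*Bmpr1a*-cKO higher) and 11.7% (lower). In each of the 6 lists, DESeq2, limma-voom and the edgeR likelihood ratio test gave as many DEGs in each direction as the quasi-likelihood test. The folate and glycine cycle list held 6 of the 10 that rose. With germ cell marker scaling, which lowered the median of all genes to -0.308, the counts were 4 and 8. With *Dazl* left out of the markers the median of all genes was -0.021 and the counts were 9 and 1, *Ero1l* (edgeR FDR = 0.0561) and *Stc2* (edgeR FDR = 0.0515) being the 2 that were no longer DEGs.

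Among 26 folate and glycine cycle genes, all tested with edgeR, 6 rose and 0 fell, with 13 higher and 0 lower by FDR alone and 14 and 0 at an unadjusted p under 0.05. Besides *Shmt1* and *Mthfd1* these were *Cbs*, which joins serine to homocysteine, *Amt* and *Gldc*, subunits of the glycine cleavage system of mitochondria, and *Atic*, which closes the purine ring with a folate one-carbon unit. *Cbs* had 2.06, 3.19, 3.09 and 3.09 CPM in control and 5.72, 9.59, 8.37 and 8.73 CPM in *Bmpr1a*-cKO libraries, so that no library of one group reached the other (Log2FC 1.52, SE 0.19, edgeR FDR = 2.73e-05). *Amt* rose from 6.66, 7.97, 10.5 and 6.31 to 11.3, 15.4, 14.6 and 18.4 CPM, also without overlap (Log2FC 0.96, SE 0.17, edgeR FDR = 0.000504). *Atic* rose from 77.4 to 87.3 CPM in control to 128 to 134 CPM (Log2FC 0.64, SE 0.057, edgeR FDR = 1.48e-06). *Gldc*, sixth in size and named after its values were seen, had 28.7 to 52.2 and 50.6 to 58.8 CPM, with control 3 among the *Bmpr1a*-cKO libraries (Log2FC 0.59, SE 0.14, edgeR FDR = 0.00447), and its Log2FC was 0.464 without control 4, below the threshold. *Cbs*, *Shmt1* and *Amt* were DEGs with germ cell marker scaling as well, whereas *Mthfd1* (0.499), *Atic* (0.346) and *Gldc* (0.297) were not; all 6 were DEGs with *Dazl* left out of the markers.

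Of 32 other ATF4 and CHOP target genes, 28 were tested, 2 rose and 1 fell, and by FDR alone 9 were higher and 3 lower. *Slc1a4*, a transporter of serine, alanine and cysteine, rose from 25.2, 23.6, 22.9 and 22.1 CPM in control to 41.3, 42.2, 46.1 and 49.8 CPM in *Bmpr1a*-cKO libraries, which were all higher (Log2FC 0.94, SE 0.080, edgeR FDR = 8.87e-07). *Ero1l*, the oxidase that renews disulfide bond formation in the endoplasmic reticulum, rose from 39.1 to 42.3 CPM to 52.7 to 64.7 CPM (Log2FC 0.55, SE 0.073, edgeR FDR = 5.09e-05) but had a Log2FC of 0.233 with germ cell marker scaling. *Stc2*, a secreted glycoprotein gene induced by this kind of stress, fell from 7.17 to 10.4 CPM to 4.09 to 8.11 CPM (Log2FC -0.68, SE 0.19, edgeR FDR = 0.0138). Its groups overlapped through *Bmpr1a*-cKO 1, and it was no longer a DEG without *Bmpr1a*-cKO 2 (edgeR FDR = 0.0565) or without *Bmpr1a*-cKO 4 (edgeR FDR = 0.0520). *Cebpg*, a partner of ATF4 named after its values were seen, was among those that passed the FDR but not the fold threshold (Log2FC 0.44, edgeR FDR = 0.000667), with all *Bmpr1a*-cKO libraries, at 42.1 to 49.7 CPM, above the controls at 31.0 to 36.9 CPM.

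Upstream, 13 genes of the eIF2alpha kinases, phosphatase and exchange factor were tested and 0 were DEGs, while 5 were higher and 1 lower in the edgeR quasi-likelihood test, both by FDR alone and at an unadjusted p under 0.05. *Eif2ak4*, which encodes the amino acid sensing kinase GCN2 and is named after its values were seen, had 48.4, 43.9, 51.0 and 48.4 CPM in control and 66.6, 67.0, 72.1 and 65.4 CPM in *Bmpr1a*-cKO libraries. Its groups did not overlap, and it missed the fold threshold narrowly (Log2FC 0.499, SE 0.066, edgeR FDR = 5.54e-05). *Eif2ak3*, which encodes the endoplasmic reticulum kinase PERK and was named alike, had 29.2 to 33.2 and 28.4 to 32.1 CPM (Log2FC -0.05, edgeR FDR = 0.636). Also named after their values were seen, *Impact* was among the 5 higher by FDR alone (Log2FC 0.46, edgeR FDR = 0.00266). *Eif2b3* was the 1 gene lower (Log2FC -0.36, edgeR FDR = 0.00260).

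The list for the ATF6 and XBP1 branch of the unfolded protein response held 18 genes, among them sensors and transcription factors beside chaperones. Of these 0 rose and 1 fell, with 1 higher and 2 lower by FDR alone and 2 and 2 at an unadjusted p under 0.05 (edgeR quasi-likelihood). *Dnajb11*, a co-chaperone of the endoplasmic reticulum, fell from 52.5, 55.3, 50.8 and 55.2 CPM to 29.1, 39.0, 36.3 and 41.8 CPM (Log2FC -0.54, SE 0.091, edgeR FDR = 0.000431), and without *Bmpr1a*-cKO 1 its Log2FC of -0.450 missed the fold threshold and it was no longer a DEG. *Hspa5*, which encodes the chaperone BiP and was named after its values were seen, had 424 to 445 and 440 to 481 CPM (Log2FC 0.073, edgeR FDR = 0.351).

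Of 18 cytosolic aminoacyl-tRNA synthetase genes, which charge tRNAs and are partly under ATF4 control, 1 rose and 0 fell, and 6 were higher and 0 lower by FDR alone in edgeR, and 8 and 1 at an unadjusted p under 0.05. *Vars*, for valine, rose from 213, 171, 222 and 171 CPM to 323, 321, 338 and 289 CPM without overlap (Log2FC 0.71, SE 0.087, edgeR FDR = 2.54e-05). Of 8 glutathione genes 1 rose and 0 fell, with 2 higher and 1 lower by FDR alone in edgeR, and 3 and 1 at an unadjusted p under 0.05. This was *Gsr*, glutathione reductase, which rose from 64.8 to 75.4 CPM to 90.9 to 112 CPM (Log2FC 0.56, SE 0.076, edgeR FDR = 6.12e-05). Neither *Vars* (0.428) nor *Gsr* (0.258) was a DEG with germ cell marker scaling, and both were (0.717 and 0.544) with *Dazl* left out of the markers.

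**Figure D4:**
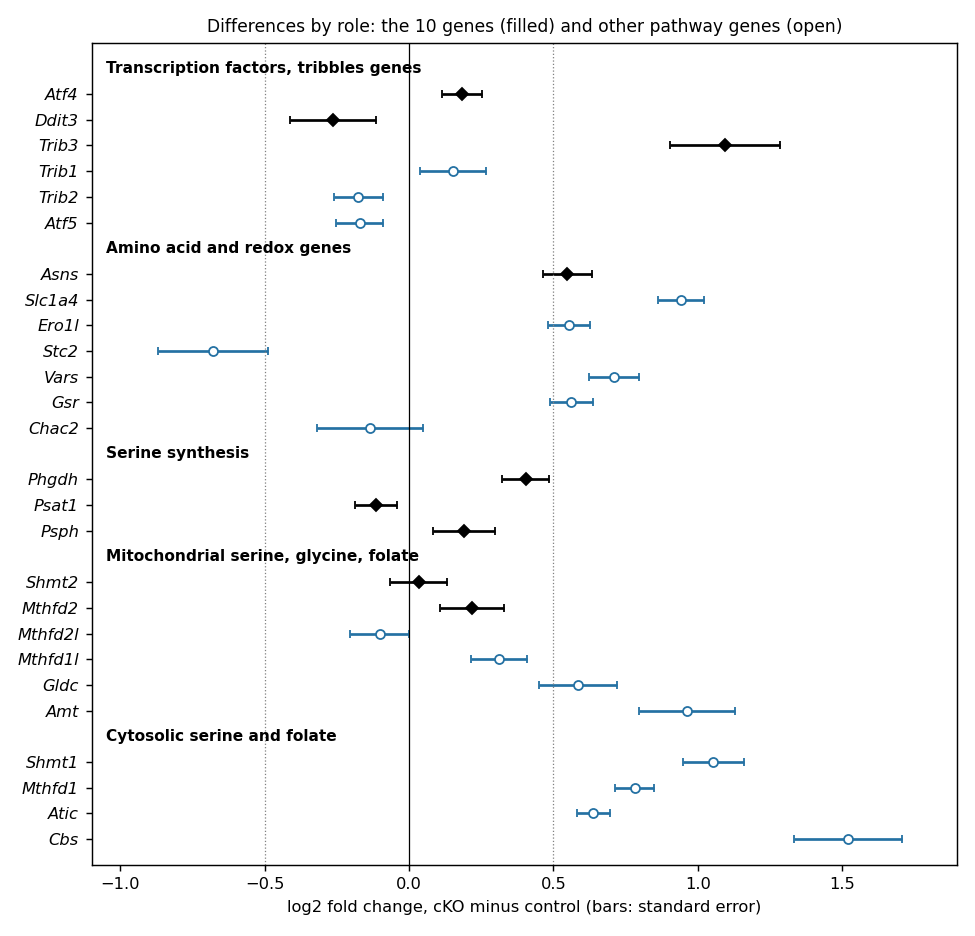
Log2FC (*Bmpr1a*-cKO minus control) with its standard error, for 9 of the 10 genes (filled diamonds, shown without a test; *Chac1* had too few counts) and for relatives and other pathway genes (open circles); dotted lines mark the fold threshold of 0.5 in each direction. *Shmt1*, *Cbs*, *Trib3*, *Amt* and *Slc1a4* lie farthest to the right, and *Atf4* and *Ddit3* lie between the dotted lines. Besides the relatives, only pathway genes that were DEGs are drawn. The circles therefore do not show the 111 pathway genes tested, whose median Log2FC was 0.073.

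Genes that respond to handling or low oxygen were examined beside these. Of 11 immediate early and heat shock genes tested, 1 rose, *Egr1*, from 7.26 to 9.54 CPM to 12.6 to 14.4 CPM (Log2FC 0.69, edgeR FDR = 0.000300), and by FDR alone 1 was higher and 1 lower. Of 10 hypoxia response genes 3 rose and 0 fell, with 4 higher and 1 lower at an unadjusted p under 0.05 in edgeR. *Egln3*, an oxygen-sensing prolyl hydroxylase, rose from 5.84 to 7.21 CPM to 13.1 to 22.8 CPM (Log2FC 1.44, edgeR FDR = 6.50e-06). *Pfkfb3*, an activator of glycolysis, had a Log2FC of 0.84 (edgeR FDR = 5.94e-06), and *Slc2a1*, the glucose transporter GLUT1, one of 0.67 (edgeR FDR = 6.65e-06). Their part in the values of the stress and serine genes was not tested.

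The pattern of *Trib3* over the 8 libraries was compared with that of every other gene tested, as the root-mean-square difference of log2 CPM after the mean of each gene was subtracted. The nearest were *Utf1* (0.070), *Elf3* (0.144), *2010300C02Rik* (0.144), *Coro1a* (0.145) and *Tex21* (0.161). Like *Trib3*, these 5 had their lowest value in control 4 and their highest control value in control 3. As they were chosen for nearness to *Trib3* over these same libraries, the likeness follows from the choice and nothing is read from it. *Tex21* was near the floor, at 0.316 CPM in control 4 where 3 counts made 0.189 CPM. *Utf1* encodes a chromatin factor of pluripotent cells, and it had 19.2, 17.002, 23.7 and 11.7 CPM in control and 33.1, 41.0, 38.1 and 39.0 CPM in *Bmpr1a*-cKO libraries. Within the list, *Asns* was the nearest to *Trib3* (0.404, rank 493 of 14248), then *Phgdh* (0.433, rank 699), whereas *Atf4* ranked 2976 and *Ddit3* 11271.

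For *Asns* the nearest were *Zfp365* (0.087), *Rcc1* (0.089), *Rcc2* (0.093), *Pus1* (0.093) and *Pus7* (0.093). *Rcc1* encodes the nucleotide exchange factor of the GTPase Ran, and *Pus1* and *Pus7* encode pseudouridine synthases. Of the list, *Phgdh* was the nearest to *Asns* (0.169, rank 446 of 14248), then *Mthfd2* (0.199, rank 1034), *Atf4* (0.205, rank 1171) and *Psph* (0.209, rank 1276). All libraries enter these measures, so the difference between genotypes is part of them.

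**Figure D5:**
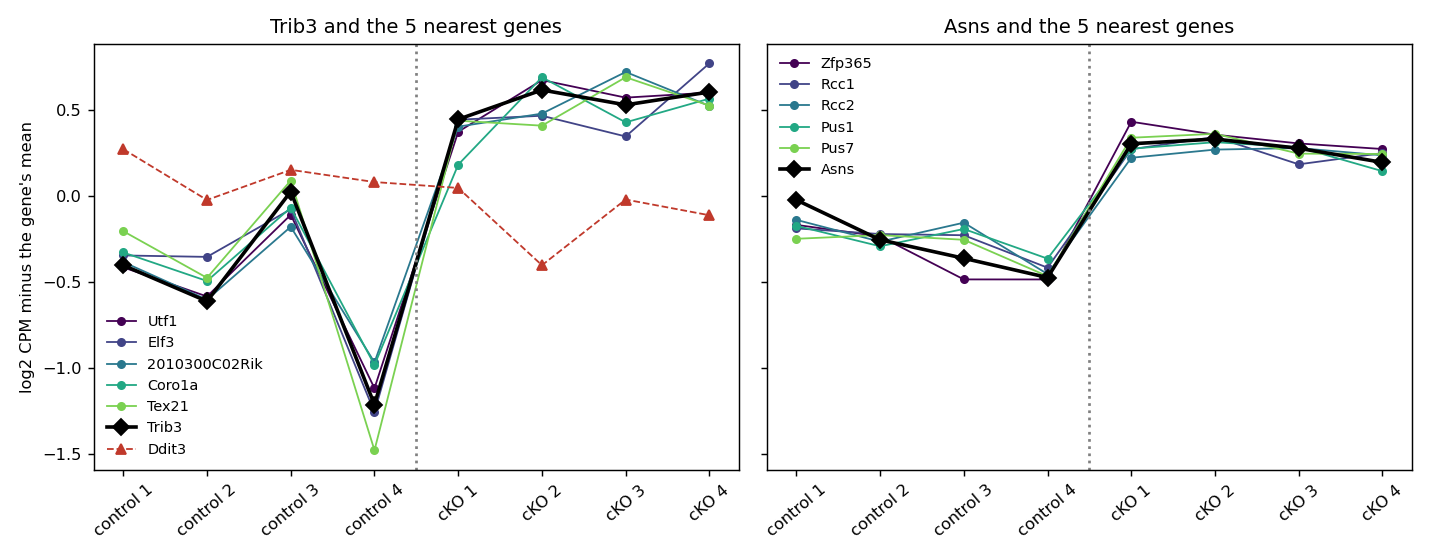
Log2 CPM minus the mean of each gene in the 8 libraries, for *Trib3* (left) and *Asns* (right) in black with their 5 nearest genes in colour, and for *Ddit3* as a dashed red line on the left; the dotted line separates control from *Bmpr1a*-cKO libraries. *Trib3* and the genes chosen for nearness to it are low in control 4, a likeness that follows from the choice. *Ddit3* runs on the other side of them in most libraries.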

How the data were processed

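RNA-Seq was measured in 4 control and 4 *Bmpr1a*-cKO pools of E14.5 ovaries. The authors trimmed reads with Trimmomatic 0.39, mapped them to mm10 with STAR 2.5.2 and deposited unnormalized counts per gene symbol; libraries were strand-specific, but the annotation and strand setting of the counting are not given in the sources used here. A deposited CPM table was not used.

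In R 4.3.3, edgeR 4.0.16 was applied with filterByExpr, TMM and the two-sided quasi-likelihood test for genotype, with Benjamini-Hochberg adjustment over 14249 genes. Log2 CPM carried a prior count of 2, and floors cover counting error only. P-values set the genotype difference against the spread between these pools, estimated with information shared across genes. Litter was not in the model. Alternatives used limma 3.58.1, DESeq2 1.42.0, other scalings and filters, and omission of each library. Scripts were tested on simulated data.

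The 10 genes and all lists were chosen with earlier results of these data known. Named genes were the 10, their relatives, up to 5 DEGs per list, and the 5 nearest patterns to *Trib3* and *Asns*. *Gldc*, *Cebpg*, *Eif2ak4*, *Eif2ak3*, *Impact*, *Eif2b3*, *Hspa5*, *Hbb-y* and the germ cell markers given by name fall outside this rule and were named after their values were seen. Positions and exon lengths came from GENCODE vM21, promoters from RefSeq (GRCm38.p6). All 198 list genes were found, 196 by symbol and 2 by synonym.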

Additional observations from a re-analysis of the deposited data

How the results depend on the processing

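The counts of DEGs among all genes (871 higher, 578 lower) and the other pathway genes (10 and 2) stayed within 1.5 times under the other tests, filters and scalings apart from those to the germ cell markers. Scaling to the germ cell markers gave 361 and 2317 for all genes and 4 and 8 for the pathway genes, and moved the median Log2FC of the stress and serine genes from 0.19 to -0.104, with 7 of 9 above the median of all genes (-0.308). *Atf4*, *Psph*, *Shmt2* and *Mthfd2* then turned negative. Of the 8 scaling markers 4 were themselves DEGs, 3 higher and 1 lower. Without *Dazl* among them, chosen after seeing the data, the counts were 633 and 444, and 9 and 1, the median was 0.18 and those 4 genes were above 0. With FDR alone the counts were 2461 and 1781, and 36 and 7. Library size as the scale gave 744 and 722. With the longest transcript as the length, 2 genes changed place in the order of control levels, *Psat1* (32.3 RPKM) and *Atf4* (27.4 RPKM). Leaving out 1 library gave 762 to 1000 higher and 501 to 666 lower genes, 9 to 12 and 1 to 3 pathway genes, and medians of 0.113 (without control 4) to 0.252; 1 pathway gene fell without *Bmpr1a*-cKO 1, 2 or 4.

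The replicate block gave 875 and 582, 10 and 2, and a median of 0.198. The numbers are not stated to pair the libraries: same-numbered libraries deviated with correlations of 0.202, 0.167, 0.114 and -0.083, and not every library correlated best with its own number. No sample stood apart in the 20 groups of values examined by Dixon's test. The depth leaves no comparison of *Chac1*.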
